A study of Mus musculus with 15 samples.

Results

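Unstretched cultures of a mechanical stretch study in podocytes were compared between the study's experiments. The 3 unstretched cultures of experiment 2 were set against the 3 unstretched cultures of experiment 1, chosen by sample title, which gave 6 of the 15 samples of the series. All 15 were SVI cells, a single conditionally immortalised mouse podocyte line, differentiated and plated on flexible silicone membranes, and the labels name no altered allele, drug or time point. The other samples were 6 low-stretch cultures of experiment 1, labelled with a membrane deflection of 5 to 6 mm, and 3 high-stretch cultures of experiment 2, labelled with 7 to 8 mm. The design text gives single deflections of 6 and 8 mm. Nothing in the labels says whether the replicates were separate cultures or separate passages, so the p-values measure the spread between these samples only. Everything that was done once per experiment cannot be told apart from the experiment itself.

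Podocytes are the epithelial cells that wrap the capillaries of the kidney glomerulus. Their interlocking foot processes are joined by the slit diaphragm, a cell junction built around nephrin (Nphs1), and their shape rests on actin bundles and on adhesion to a collagen IV and laminin basement membrane. Cells of such lines divide while the immortalising oncogene is active and are meant to leave the cell cycle and mature once it is switched off. Libraries made by poly(A) selection favour spliced messenger RNA over nuclear and non-polyadenylated RNA, and the share of G and C bases in a transcript (its GC content) can change how well it is recovered during library preparation.

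The gene counts summed to between 279096099 and 294648217 per sample in experiment 1 and to 181392067, 172211836 and 264475698 in experiment 2. Values below are counts scaled to library size (CPM) with TMM factors. The first principal component of the 6 samples held 86.8% of the variance and placed the cultures of experiment 1 at -95.0, -74.2 and -107.3 and those of experiment 2 at 108.8, 148.9 and 18.8. Replicate 3 of experiment 2 stood apart from its group, towards experiment 1. Across 20707 genes, the slope of its shift from experiment 1 on the mean shift of the other two replicates was 0.49, against a slope of 1.10 for replicate 2 on replicate 1. Beside results of the main programs, values without that sample are given where a call or a count of calls changed by over 1.5 times.

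Podocyte identity was partial in both groups. Nphs1 was at 0.224, 0.296 and 0.362 CPM in experiment 1 and 1, 0.646 and 0.398 CPM in experiment 2. Synpo, an actin-associated protein of foot processes, was at 306, 325 and 336 CPM in experiment 1 and 762, 750.2 and 469 CPM in experiment 2, and Podxl, the sialomucin of the podocyte surface, was at 167, 163 and 165 CPM in experiment 1 and 183, 171 and 201 CPM in experiment 2. Markers of other kidney cell types were carried by a few genes. The abundant proximal tubule markers went in opposite directions when no correction was made. Lrp2, the tubular endocytic receptor megalin, was at 967, 935 and 1094 CPM in experiment 1 and 425, 318 and 663 CPM in experiment 2. Aqp1, the water channel of proximal tubule and other cells, was at 80.1, 68 and 285 CPM in experiment 1 and 832, 840.1 and 274 CPM in experiment 2, with replicate 3 of both experiments at like values. The log2 difference was -1.09 ± 0.27 for Lrp2 and 2.17 ± 0.62 for Aqp1 (edgeR adjusted p = 0.00946 and 0.0163), and with the GC offset described below -1.02 ± 0.23 and 1.41 ± 0.57 (edgeR adjusted p = 0.0112 and 0.0709). Aqp1 was called with the offset when replicate 3 of experiment 2 was left out (1.71; edgeR adjusted p = 0.0267). The Lrp2 transcript is long, at 15460 bases. With offsets for GC content and transcript length together and all samples, Lrp2 was not called (-0.18 ± 0.11; edgeR adjusted p = 0.197). Neither was Aqp1 (1.31 ± 0.56; edgeR adjusted p = 0.0895). Pax2, a transcription factor of the parietal epithelium and the early kidney, was at 260, 219 and 227 CPM in experiment 1 and 402, 374 and 304 CPM in experiment 2. In the parietal list Pax8 was also higher and Cldn1 lower (6.9, 5.73 and 5.9 CPM, then 1.66, 1.66 and 5.22 CPM). The 7 parietal markers summed to 347 to 414 CPM and then 483 to 611 CPM. Of 4 tested, 1 was called higher, and none with the GC offset. The 6 mesangial markers summed to 135 to 162 CPM and then 160 to 195 CPM. Of 4 tested, Pdgfrb and Sfrp2 were called higher and Tbx18 lower, and only Tbx18 with the offset. The summed level of the 8 podocyte markers, of which 3 were below 1 CPM in all 6 samples, ran from 585 to 627 CPM in experiment 1 and from 711 to 967 CPM in experiment 2, and that of the 6 proximal tubule markers from 1010 to 1380 and from 941 to 1260 CPM. Within the podocyte sum Synpo was higher in experiment 2 and Cd2ap lower (107, 100 and 119 CPM, then 19.2, 10.3 and 35.5 CPM). Of the 6 podocyte markers tested, 3 were called higher and 1 lower. With the GC offset none was higher and 1 lower (median -0.0073), and with GC and length offsets together 1 was higher and 2 lower (median 0.16). The 6 fibroblast markers summed to between 0.59 and 1.53 CPM and the 6 distal tubule and collecting duct markers to at most 0.76 CPM over all 6 samples, while Ren1, Slc22a6, Umod, Aqp2 and Adgre1 had no count in any of them. In bulk samples, fewer cells of a type and less RNA per cell cannot be told apart.

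The unstretched groups differed across most of the transcriptome. With edgeR's quasi-likelihood test and an adjusted p under 0.05, 12941 of the 20707 genes tested (62.5%) were called, 6160 higher in experiment 2 (29.7%) and 6781 lower (32.7%). The CPM values of the groups did not overlap for 15099 genes (72.9%). Without replicate 3 of experiment 2, 33.2% of the genes tested were called higher and 39.8% lower. Counts for any gene list are read against these shares.

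The direction of the difference followed base composition. Genes were ranked by the GC content of their longest annotated transcript and split into 10 groups of about 2050 genes. In the lowest group, with a GC content of up to 41.0%, 1698 of 2051 genes were called lower in experiment 2 and 33 higher, with a median log2 fold change of -1.87. In the highest group, above 57.6%, 1347 of 2051 genes were called higher and 65 lower, with a median of 0.99. The medians rose at every step in between, and the difference between the end groups was -2.86 on the log2 scale, or -3.51 without replicate 3 of experiment 2. Over 13827 protein-coding genes, the fold change had a Pearson r of 0.70 with the GC content of the whole transcript, 0.63 with that of the coding sequence and -0.37 with log2 transcript length. These are correlations across genes of the same 6 libraries, and genes are not independent replicates. By length, the 10 groups differed less: the longest transcripts, from 5979 bases up, had a median of -0.83 and the other 9 groups lay between -0.33 and 0.30.

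The shift was also seen sample by sample. The GC content averaged over all counts was 49.1%, 49.4% and 48.9% in experiment 1 and 52.3%, 52.7% and 51.0% in experiment 2. Replicate 3 of experiment 2 was again nearest to experiment 1, and the groups did not overlap (exact permutation test, two-sided, p = 0.1, the smallest that 3 against 3 samples can give). The mean transcript length, weighted by TPM, was 1828, 1815 and 1831 bases in experiment 1 and 1536, 1521 and 1728 bases in experiment 2.

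**Figure D1:**
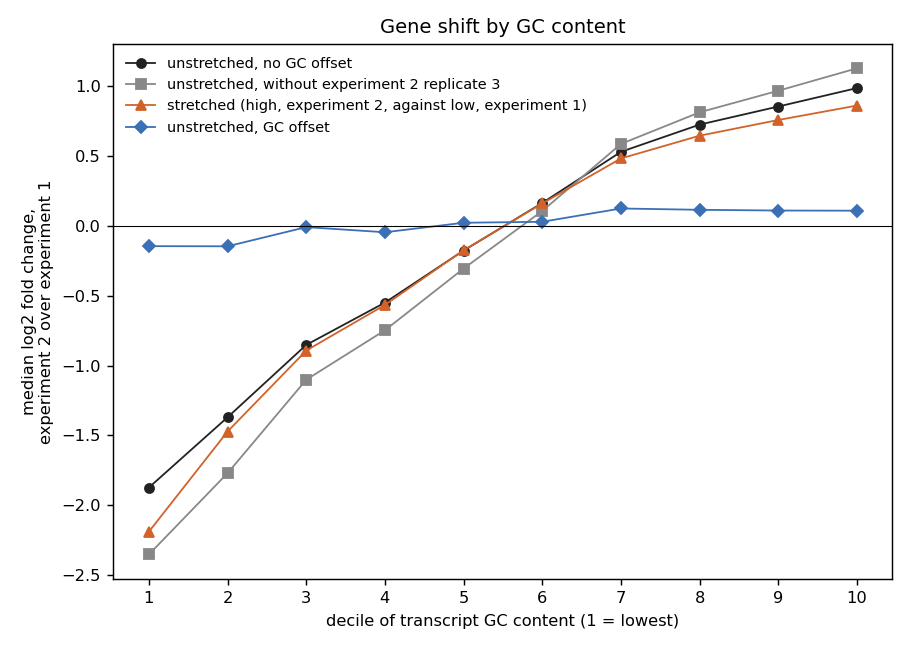
Median log2 fold change (experiment 2 over experiment 1, vertical axis) of the genes in each of 10 groups ranked by transcript GC content (horizontal axis, 1 = lowest). Without a correction the unstretched medians run from -1.87 to 0.99, with the same course without replicate 3 of experiment 2 and in the stretched cultures, whereas with the GC offset they lie between -0.15 and 0.13.

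Each gene was also tested with a GC offset, a smooth trend of its deviation on GC content that was fitted and removed in each sample. The offset takes out any difference that follows GC content, whatever its source, so both values are given for each program. Shares of counts and of TPM, given further below, carry no such offset. It leaves a trend with length: after it, the fold change of protein-coding genes had a Pearson r of -0.26 with log2 transcript length. The longest of the 10 length groups then had a median of -0.45 and the shortest one of 0.22. With it, 9402 of 20503 genes (45.9%) were called, 5097 higher (24.9%) and 4305 lower (21.0%). Of the 12829 genes called without the offset in this set, 6835 were called in the same direction with it (53.3% of the first list and 72.7% of the second), 371 in the opposite direction, and 5623 were not called. A further 2196 genes were called only with the offset. Without replicate 3 of experiment 2, the test with the offset called 31.1% of the genes higher and 27.9% lower.

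Coding sequences from both ends of this range are shown because the members of a single pathway fell on both sides of it. Each is the first 120 bases of the coding sequence in the GENCODE M21 transcripts, and capitals mark runs of at least 4 bases that are only A or T. Scand1 (chromosome 2), a small SCAN domain protein, and Prpf39 (chromosome 12), a spliceosomal U1 particle factor, are among the protein-coding genes with the 10 largest rises and the 10 largest falls that were called with and without the offset, at a mean of at least 5 CPM. Uqcr11 (chromosome 10) and Ndufs1 (chromosome 1) are nuclear genes for subunits of the respiratory chain with the largest rise and the largest fall in their list, and mt-Co1 is the subunit of cytochrome c oxidase encoded on the mitochondrial genome. These 5 were chosen for display after their values were seen.
Scand1: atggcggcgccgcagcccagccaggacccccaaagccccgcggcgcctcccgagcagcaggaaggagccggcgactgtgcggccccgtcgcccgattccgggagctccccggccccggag
Prpf39: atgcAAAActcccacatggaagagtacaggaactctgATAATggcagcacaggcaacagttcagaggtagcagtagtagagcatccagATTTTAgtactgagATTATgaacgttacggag
Uqcr11: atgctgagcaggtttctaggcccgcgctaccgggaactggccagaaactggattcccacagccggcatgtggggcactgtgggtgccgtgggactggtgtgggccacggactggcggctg
Ndufs1: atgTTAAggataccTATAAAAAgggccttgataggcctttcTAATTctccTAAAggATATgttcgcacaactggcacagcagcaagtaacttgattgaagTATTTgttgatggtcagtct
mt-Co1: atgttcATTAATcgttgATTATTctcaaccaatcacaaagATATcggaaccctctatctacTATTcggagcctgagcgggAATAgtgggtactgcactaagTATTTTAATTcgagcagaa
The stretches of Scand1 and Uqcr11 held no such run, against 20 bases in runs for Prpf39, 30 for Ndufs1 and 34 for mt-Co1. The GC content of the whole coding sequence was 75.6% for Scand1, 60.7% for Uqcr11, 45.1% for Ndufs1, 39.9% for mt-Co1 and 38.3% for Prpf39.

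Among protein-coding genes that were called with and without the GC offset at a mean of at least 5 CPM, the 10 largest rises were led by Scand1. Scand1 was at 5.78, 8.45 and 3.83 CPM in experiment 1 and 75.1, 91.4 and 20.1 CPM in experiment 2, a difference of 3.37 ± 0.55 on the log2 scale (SE; edgeR adjusted p = 0.00533) and of 2.26 ± 0.39 with the offset. All 3 cultures of experiment 2 were above all 3 of experiment 1, with replicate 3 the lowest of its group. H2afj, a replication-independent variant of histone H2A, differed by 2.49 ± 0.47 and by 1.77 ± 0.36 with the offset. The mitochondrial ribosomal protein genes Mrps34 (2.20, then 1.26) and Mrps24 (2.14, then 1.40), the dCTP pyrophosphatase gene Dctpp1 (2.11, then 1.21) and the secreted peptide gene Enho (2.28, then 1.18) were among the same 10 largest rises.

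The 10 largest falls among the same protein-coding genes ran from Spaca6 to Mdm4. Mdm4, a negative regulator of p53, was at 203, 164 and 210.5 CPM in experiment 1 and 23.1, 15.8 and 54.8 CPM in experiment 2, a log2 difference of -2.62 ± 0.43 (edgeR adjusted p = 0.00533) that was -1.61 ± 0.25 with the GC offset. Tet2, an enzyme that oxidises methylated cytosine in DNA, was at 24.4, 15.9 and 26.7 CPM in experiment 1 and 2.63, 1.54 and 6.17 CPM in experiment 2, and differed by -2.69 ± 0.49 without and -2.02 ± 0.36 with the offset. Both genes were below the range of experiment 1 in all 3 cultures of experiment 2. Paxbp1 (-2.67, then -2.16 with the offset) and Spaca6 (-2.81, then -2.05) kept most of their difference, whereas Prpf39 (-2.80, then -0.97), Ttc14 (-2.78, then -1.05), Fam199x (-2.78, then -1.05), Nbeal1 (-2.75, then -0.93), the p53 target Trp53inp1 (-2.66, then -0.94) and the zinc-finger gene Zfp329 (-2.65, then -1.06) kept less. With GC and length offsets together, Nbeal1, with a transcript of 15731 bases, was not called (-0.08 ± 0.10; edgeR adjusted p = 0.533).

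Genes for making protein were mostly called higher in experiment 2. Of 79 cytosolic ribosomal protein genes, 71 were called higher and none lower, with a median log2 fold change of 1.27 against -0.07 over all genes tested. With the GC offset 70 were called higher and 1, Rps10, lower, and the median was 0.96 against 0.03 over all genes. With GC and length offsets together 66 were higher and 1 lower (median 0.76). Rps2, a protein of the small ribosomal subunit, was at 1121, 1595 and 993 CPM in experiment 1 and 5710.2, 6918 and 2346 CPM in experiment 2, and Rps14 at 437, 443 and 445 CPM in experiment 1 and 2082, 2418 and 671 CPM in experiment 2. Replicate 3 was the lowest sample of experiment 2 for both genes, and the groups did not overlap. Of 77 mitochondrial ribosomal protein genes, 59 were called higher and 4 lower, and 66 higher and none lower with the offset (median 1.01, then 0.84). The 4 lower genes, Mrpl1, Mrpl42, Mrpl47 and Mrpl50, were not called lower once the offset was applied. Ribosomal protein genes have many processed pseudogenes with near-identical sequence, so the split of reads between copies is uncertain.

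Respiratory chain genes separated by the genome that encodes them when no correction was made. Of 73 nuclear subunit genes of oxidative phosphorylation, 64 were called higher and 2 lower (median 1.25), and with the GC offset 64 higher and none lower (median 0.94). With GC and length offsets together 62 were higher and 1 lower (median 0.78). Cox4i1, a nuclear subunit of cytochrome c oxidase, was at 181, 194 and 162 CPM in experiment 1 and 659, 860.1 and 296 CPM in experiment 2, a log2 difference of 1.76 ± 0.35 (edgeR adjusted p = 0.00554) and of 0.87 ± 0.21 with the offset. Among the lower genes, Ndufs1, a core subunit of complex I, had -0.92 ± 0.24, which was not called with the offset (-0.16 ± 0.13; edgeR adjusted p = 0.336). Uqcrb, a GC-poor subunit gene of complex III, changed direction: -0.62 ± 0.20 without the offset and 0.98 ± 0.16 with it (edgeR adjusted p = 0.0266 and 0.00559).

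The mitochondrially encoded genes moved opposite to the nuclear ones without the offset and with them under it. Of the 13 protein genes of the mitochondrial genome, 11 were called lower and none higher (median -1.29), whereas with the offset 11 were called higher and none lower (median 0.75), and 10 higher with GC and length offsets together. mt-Co1 was at 10607, 9649 and 11208 CPM in experiment 1 and 5232, 4480.1 and 6704 CPM in experiment 2, a log2 difference of -0.94 ± 0.22 (edgeR adjusted p = 0.0072) that became 0.75 ± 0.17 (edgeR adjusted p = 0.0102). mt-Cytb, the cytochrome b of complex III, was at 4066, 3689.7 and 4607 CPM in experiment 1 and 1199, 849 and 2030.1 CPM in experiment 2, and its difference went from -1.60 ± 0.32 to 0.11 ± 0.13 (edgeR adjusted p = 0.5). The measured levels of both genes did not overlap between the groups. The median GC content of the 13 transcripts was 37.1%, so their corrected values rest on the trend fitted across GC-poor genes. Of 20 mitochondrial tRNA genes tested, 8 were called lower and 1, mt-Tv, higher without the offset and 12 higher and none lower with it.

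Proteasome genes were called in one direction once GC content was removed. Without the offset, 18 of 31 were higher and 4 lower (median 0.65), and with it 26 were higher and none lower (median 0.70). Psmb5, a catalytic subunit of the core particle, was at 49.7, 57.3 and 40.6 CPM in experiment 1 and 154, 197 and 78.2 CPM in experiment 2, and Psmc6, an ATPase of the regulatory particle with a GC content of 37.0%, was at 87.9, 89.9 and 84.7 CPM in experiment 1 and 23.5, 17.2 and 36.9 CPM in experiment 2. The Psmb5 difference was 1.54 ± 0.33 on the log2 scale (edgeR adjusted p = 0.00583) and 0.73 ± 0.20 with the offset. That of Psmc6 was -1.76 ± 0.27 (edgeR adjusted p = 0.00533) and 0.20 ± 0.15 with the offset (edgeR adjusted p = 0.304). The other 3 genes called lower were Psma1, Psmd6 and Psmd14.

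**Figure D2:**
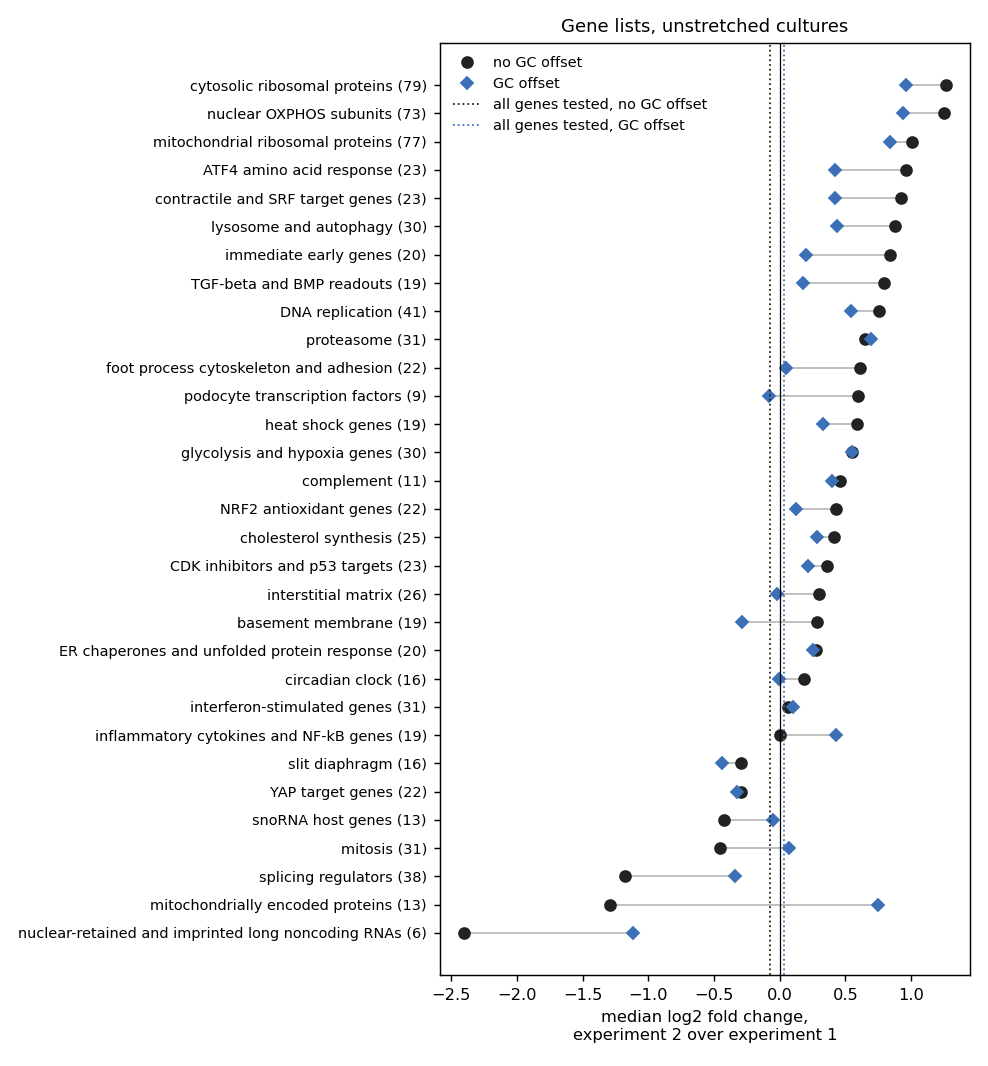
Median log2 fold change (horizontal axis, experiment 2 over experiment 1) of the genes tested in each of 31 gene lists (number tested in brackets), without (black circles) and with (blue diamonds) the GC offset, with dotted lines at the medians of all genes tested (-0.07 and 0.03). Ribosomal, respiratory chain and proteasome lists stay to the right under both settings, while the mitochondrially encoded proteins go from -1.29 to 0.75.

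Of 41 DNA replication genes, 22 were called higher and 6 lower (median 0.76), and 19 higher and 2 lower with the GC offset (median 0.54). Mcm5, a subunit of the replicative helicase, was at 69.2, 133.4 and 78.8 CPM in experiment 1 and 269, 413 and 161 CPM in experiment 2, a log2 difference of 1.58 ± 0.38 (edgeR adjusted p = 0.00783) and of 1.17 ± 0.31 with the offset (edgeR adjusted p = 0.018). Gins2, another helicase component, had 1.50 ± 0.32 and then 0.91 ± 0.24. Pola1, the catalytic subunit of the priming polymerase, was lower under both settings (-1.99 ± 0.36, then -0.65 ± 0.22), and Rfc1, a clamp loader subunit, was the other gene lower with the offset. Ccne2, the cyclin E that drives entry into S phase, was called lower without the offset (-1.49) and not called with it (0.53; edgeR adjusted p = 0.0842).

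Of 31 mitosis genes, 4 were called higher (Aurka, Aurkb, Plk1 and Cdc20) and 14 lower, with a median of -0.46. With the offset, 6 were higher and 8 lower and the median was 0.07. In the fit that left out replicate 3 of experiment 2, 8 were higher and 17 lower, and 8 and 9 with the offset. The difference between the lists of replication and mitosis genes was not tested. Mki67, the proliferation antigen that coats mitotic chromosomes, was at 217, 277 and 405 CPM in experiment 1 and 65.1, 33.1 and 117 CPM in experiment 2, a log2 difference of -2.06 ± 0.44 (edgeR adjusted p = 0.00598) that was -1.58 ± 0.35 with the offset (edgeR adjusted p = 0.0103). The groups did not overlap, and replicate 3 was the highest of experiment 2. Aspm, a spindle pole protein, differed by -2.29 ± 0.44 and then -1.45 ± 0.30, and the kinetochore motor gene Cenpe by -2.14 ± 0.46 and then -1.05 ± 0.29. Cdc20, an activator of the anaphase-promoting complex, was called higher without the offset (1.10) and not with it (0.36; edgeR adjusted p = 0.161). Mki67, Bub1, Kif11, Kif23, Cenpe, Cenpf, Ttk and Aspm were the 8 genes lower with the offset, and Cdk1, Ccnb1, Aurka, Cenpa, Birc5 and Mad2l1 the 6 higher.

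Of 23 cyclin-dependent kinase inhibitors and p53 targets, 10 were called higher and 5 lower (Mdm2, Ccng1, Trp53inp1, Eda2r and Fas), with a median of 0.36. With the offset 4 were higher (Cdkn1b, Phlda3, Tnfrsf10b and Trp53) and 2 lower (Mdm2 and Trp53inp1), with a median of 0.22. With replicate 3 of experiment 2 left out, 10 were higher and 9 lower, and 8 and 3 with the offset. Cdkn1a, the p21 inhibitor induced by p53, was at 226, 276 and 184 CPM in experiment 1 and 460.3, 624 and 284 CPM in experiment 2. Its log2 difference of 0.99 ± 0.30 (edgeR adjusted p = 0.019) was 0.32 ± 0.20 with the offset and was then not called (edgeR adjusted p = 0.2), though it was called when replicate 3 of experiment 2 was also left out (0.48; edgeR adjusted p = 0.0341). Phlda3, a p53-induced inhibitor of Akt signalling, was called under both settings (1.67 ± 0.33, then 0.68 ± 0.19). Gdf15, a secreted stress factor, was called only without the offset (1.32, then 0.46).

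The junction and adhesion genes of podocytes went in different directions. Of 16 slit diaphragm genes tested, 2 were called higher (Nphs1 and Kirrel3) and 6 lower (Cd2ap, Tjp1, Mpp5, Magi1, Magi2 and Nck1), with a median of -0.29, and none was higher and 8 were lower with the GC offset (median -0.44). Without replicate 3 of experiment 2, 1, Kirrel3, was higher and 11 lower with the offset. With GC and length offsets together and all samples, none was higher and 5 were lower, and the median was -0.09. Cd2ap, the adaptor that ties the slit diaphragm to actin, was at 107, 100.2 and 119 CPM in experiment 1 and 19.2, 10.3 and 35.5 CPM in experiment 2, a log2 difference of -2.32 ± 0.40 (edgeR adjusted p = 0.00533) and of -0.60 ± 0.16 with the offset (edgeR adjusted p = 0.0183). Tjp1, the tight junction scaffold ZO-1, was at 131, 125 and 166 CPM in experiment 1 and 43.1, 27.9 and 63.9 CPM in experiment 2, and differed by -1.65 ± 0.30 and then -1.19 ± 0.21. Both lay below the range of experiment 1 in every culture of experiment 2. Tjp1 stands outside the rule for named genes and was singled out after its values were seen.

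Nphs1, although called higher without the offset (1.21; edgeR adjusted p = 0.0249), was at most at 1.00 CPM in any sample. Among podocyte transcription factor genes, Foxd1 and Foxd2 were called higher and Klf6 lower without the offset, none of which was called with it, and Foxc1 was called lower with the offset. Leaving out replicate 3 of experiment 2 ended the call of Foxd1 (0.49; edgeR adjusted p = 0.102) and gave one to Foxd2 with the offset (0.72; edgeR adjusted p = 0.0131). Wt1, the master regulator of podocytes, was at 4.95, 4.19 and 6.15 CPM in experiment 1 and 1.84, 1.75 and 4.8 CPM in experiment 2. Its difference of -0.86 ± 0.40 was not called (edgeR adjusted p = 0.0915), nor was that of -1.33 ± 0.48 with the offset (edgeR adjusted p = 0.0514), and replicate 3 of experiment 2 lay within the range of experiment 1 while the other two were below it. Without that replicate Wt1 was called lower (-1.55, and -2.20 with the offset; edgeR adjusted p = 0.000359 and 0.000148). Podxl did not pass with all samples (0.16 ± 0.16, and -0.21 ± 0.15 with the offset; edgeR adjusted p = 0.39 and 0.275), and was called lower only with the offset and without replicate 3 of experiment 2 (-0.36; edgeR adjusted p = 0.0152).

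Of 22 genes of the foot process cytoskeleton and adhesion, 12 were called higher and 4, Anln, Itgb1, Nes and Clic5, lower (median 0.61), and 5 higher (Arhgap24, Cd151, Pdlim2, Vim and Cfl1) and 3 lower (Anln, Nes and Avil) with the offset (median 0.05). The counts without replicate 3 of experiment 2 were 13 higher and 7 lower, and 7 and 6 with the offset. Synpo had a log2 difference of 1.04 ± 0.22 (edgeR adjusted p = 0.006), which was 0.20 ± 0.13 with the offset (edgeR adjusted p = 0.227). With GC and length offsets together Synpo was called higher (0.35 ± 0.12; edgeR adjusted p = 0.0488). Cd151, a tetraspanin partner of laminin-binding integrins, was at 412, 433 and 387 CPM in experiment 1 and 1192, 1501 and 611 CPM in experiment 2 and was called under both settings (1.42 ± 0.31, then 0.74 ± 0.20). Itgb1, the beta subunit of those integrins, was at 953, 1006 and 976 CPM in experiment 1 and 376, 355 and 582 CPM in experiment 2, called lower without the offset (-1.16 ± 0.23) and not called with it (-0.34 ± 0.13; edgeR adjusted p = 0.0543). Itgb1 was called lower with the offset when replicate 3 of experiment 2 was left out (-0.39; edgeR adjusted p = 0.0129). The same held with GC and length offsets together and all samples (-0.37 ± 0.11; edgeR adjusted p = 0.0305). Of 19 basement membrane genes, 6 were called higher and Col4a3 lower (median 0.28), and none higher and Col4a3 and Col4a5 lower with the offset (median -0.29). Col4a2, a collagen IV chain, was at 1760, 1424 and 1941 CPM in experiment 1 and 3708, 3614 and 2589.9 CPM in experiment 2, with 0.95 ± 0.22 without and 0.05 ± 0.17 with the offset. Leaving out replicate 3 of experiment 2 raised the number of basement membrane genes called lower with the offset to 10, with 1, Lama2, higher. Transcripts of this list are long, with a median of 6615 bases. With GC and length offsets together and all samples, 2 were called higher and 1 lower, and the median was 0.16.

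Contractile genes were mostly called higher in experiment 2 when no correction was made. Of 23 contractile and serum response factor target genes, 16 were called higher and 3 lower (Tpm4, Cald1 and Myh11), with a median of 0.92, and with the GC offset 7 were higher and 3 lower (median 0.42), or 11 and 3 without replicate 3 of experiment 2. Acta2, smooth muscle actin, was at 1542, 1940.4 and 1170.2 CPM in experiment 1 and 4359, 7085 and 2422 CPM in experiment 2, a log2 difference of 1.58 ± 0.38 (edgeR adjusted p = 0.00857) and of 1.58 ± 0.37 with the offset (edgeR adjusted p = 0.0121). Its GC content of 49.6% lies close to the median of 49.4% over all genes. Replicate 2 was the highest sample within each experiment, and the groups did not overlap. Myl9, the regulatory light chain of myosin, had 1.79 ± 0.31 and then 0.97 ± 0.19, and Cald1, the actin-binding caldesmon, -1.30 ± 0.19 and then -0.48 ± 0.15.

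Of 22 YAP target genes, 6 were called higher and 7 lower (median -0.30), and none higher and 5 lower with the offset (median -0.32); the 5 were Lats2, Crim1, Asap1, Myof and Nt5e. Without replicate 3 of experiment 2 the counts were 5 higher (Axl, Nuak2, Ajuba, Arhgef17 and Fjx1) and 11 lower, and none higher and 11 lower with the offset. Ccn1, a matricellular protein that responds to YAP and to serum, was at 367, 632 and 262 CPM in experiment 1 and 634, 908 and 1459.5 CPM in experiment 2. Ccn2, its close relative, was at 227, 392 and 98.6 CPM in experiment 1 and 239, 417 and 426 CPM in experiment 2. Both varied widely within a group. The groups of Ccn2 overlapped and those of Ccn1 lay next to each other. Ccn1 had 1.25 ± 0.39 (edgeR adjusted p = 0.0226), which was not called with the offset (0.84 ± 0.41; edgeR adjusted p = 0.124) or without replicate 3 of experiment 2 (0.82; edgeR adjusted p = 0.0593), and Ccn2 0.59 ± 0.45 (edgeR adjusted p = 0.275).

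**Figure D3:**
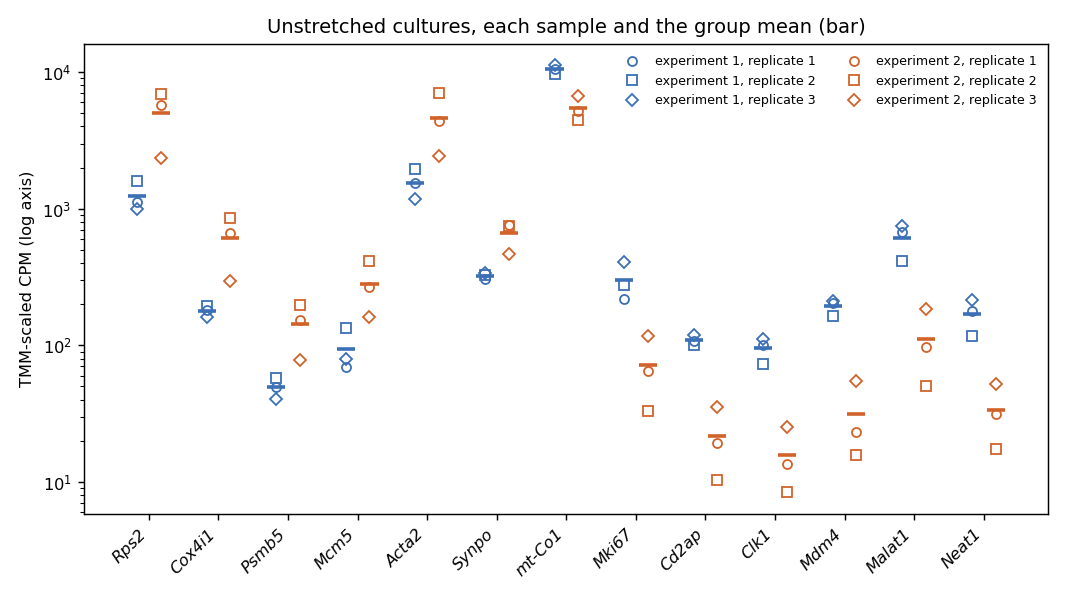
TMM-scaled CPM (log axis) of 13 genes in each unstretched culture of experiment 1 (blue) and experiment 2 (orange), with circles, squares and diamonds for replicates 1, 2 and 3 and a bar at the group mean. Genes from Rps2 to Synpo are higher in experiment 2 and genes from mt-Co1 to Neat1 lower, with the diamond of experiment 2 nearest to experiment 1 throughout.

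Genes of glycolysis and of the hypoxia response were mostly called higher. Of 30 glycolysis and hypoxia genes, 17 were called higher and 4 lower (Bnip3l, Vegfa, Car9 and Kdm3a), and 16 higher and 4 lower with the GC offset, with a median of 0.55 under both. Tpi1, triosephosphate isomerase, was at 409, 494 and 389 CPM in experiment 1 and 1319, 1637 and 726 CPM in experiment 2, a log2 difference of 1.51 ± 0.30 (edgeR adjusted p = 0.0055) and of 0.92 ± 0.20 with the offset. Pfkl, a phosphofructokinase, had 1.44 ± 0.26 and then 0.64 ± 0.15. Kdm3a, a histone demethylase induced by hypoxia, was lower under both settings (-1.29, then -0.59), while the mitophagy receptor gene Bnip3l was lower without the offset (-0.64) and higher with it (0.76; edgeR adjusted p = 0.00656). Hk2 took its place among the 4 genes called lower with the offset.

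Of 23 genes of the ATF4 amino acid response, 18 were called higher and 1, Vldlr, lower (median 0.96), and 11 higher and none lower with the offset (median 0.42). Phgdh, the first enzyme of serine synthesis, was at 289.6, 355 and 281 CPM in experiment 1 and 975, 1317 and 471 CPM in experiment 2, a log2 difference of 1.58 ± 0.35 (edgeR adjusted p = 0.0063) and of 0.73 ± 0.21 with the offset. Cebpb, a partner of ATF4, had 1.61 ± 0.23 and then 0.62 ± 0.16. Of 19 heat shock genes, 11 were called higher and 5 lower (Hsp90aa1, Dnaja1, Hspd1, Hspa4 and Chordc1), and 7 higher and 2 lower with the offset. Hsp90aa1, the inducible HSP90 chaperone, was at 975, 1149 and 1099 CPM in experiment 1 and 275, 176 and 439 CPM in experiment 2 and was lower under both settings (-1.86 ± 0.32, then -0.87 ± 0.18), whereas its co-chaperone Fkbp4 was higher (1.46 ± 0.31, then 0.71 ± 0.20). Chordc1, another HSP90 co-chaperone, went from -1.82 to 0.33 and was not called with the offset (edgeR adjusted p = 0.12), but was called higher with the offset when replicate 3 of experiment 2 was left out (0.38; edgeR adjusted p = 0.028).

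Cholesterol synthesis genes were called in both directions. Of 25, 10 were called higher and 7 lower (median 0.41), and 8 higher and 2 lower with the offset (median 0.29), or 13 and 2 with the offset and without replicate 3 of experiment 2. Mvk, mevalonate kinase, was at 18.8, 27 and 22.3 CPM in experiment 1 and 71.4, 89.3 and 34.1 CPM in experiment 2, and Mvd, which acts further down the mevalonate pathway, differed by 1.35 ± 0.32. With the offset Mvd was not called (0.43; edgeR adjusted p = 0.0819) unless replicate 3 of experiment 2 was left out (0.62; edgeR adjusted p = 0.00135). Hmgcs1, the enzyme that makes the precursor of mevalonate, was at 80.6, 91.5 and 103 CPM in experiment 1 and 22.5, 14.3 and 33.1 CPM in experiment 2. Hmgcs1 (-1.98, then -0.87) and the isomerase gene Idi1 (-2.25, then -0.89) were the 2 genes called lower with the offset, and Mvk was called higher under both settings (1.51, then 0.71).

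Of 30 lysosome and autophagy genes, 21 were called higher and 3 lower (Lamp2, Cln3 and Scarb2), with a median of 0.88, and 15 higher and 1, Cln3, lower with the offset (median 0.43). Hexa, a subunit of lysosomal hexosaminidase, was at 122, 108 and 123 CPM in experiment 1 and 302, 406 and 195 CPM in experiment 2, a log2 difference of 1.36 ± 0.26 (edgeR adjusted p = 0.00545) and of 0.64 ± 0.16 with the offset. Lamp2, a protein of the lysosomal membrane with a GC-poor transcript, was lower without the offset (-1.55 ± 0.32) and was not called with it (0.23 ± 0.13; edgeR adjusted p = 0.155). Tfeb, the transcription factor that drives lysosomal genes, was higher without the offset (1.41) and not called with it (0.41; edgeR adjusted p = 0.058), again unless replicate 3 of experiment 2 was left out (0.50; edgeR adjusted p = 0.0163).

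The remaining signalling and stress lists were mixed. Of 31 interferon-stimulated genes, 8 were called higher and 7 lower (median 0.06), and 11 higher and 2, Ifit2 and Parp14, lower with the offset (median 0.10). The immunoproteasome subunit gene Psmb8 was at 1.07, 1.06 and 0.946 CPM in experiment 1 and 3.82, 4.99 and 2.7 CPM in experiment 2 and was higher under both settings (1.91 ± 0.28, then 1.43 ± 0.21), and Ifit2, which encodes an antiviral RNA-binding protein, was lower under both (-1.99 ± 0.29, then -0.67 ± 0.14). Of 22 NRF2 antioxidant genes, 7 were called higher and 2, Gclc and Txn1, lower, and 10 higher and 1, Gclc, lower with the offset (medians 0.43 and 0.12). Of 20 genes of the unfolded protein response in the endoplasmic reticulum, 8 were called higher and 6 lower, and 9 higher and 1, Dnajc3, lower with the offset (medians 0.28 and 0.26). Xbp1, a transcription factor of that response, was higher under both settings (1.17, then 0.64). With replicate 3 of experiment 2 left out, the interferon genes gave 9 higher and 11 lower (12 and 4 with the offset), the NRF2 genes 11 higher and 4 lower (10 and 2), and the unfolded protein response genes 9 higher and 9 lower (9 and 3).

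Of 19 genes that read out TGF-beta and BMP signalling, 7 were called higher and 5 lower (Skil, Id4, Tgfbr1, Inhba and Fst), with a median of 0.80. With the offset 3 were higher (Tgfb1, Bambi and Tgfb1i1) and 3 lower (Skil, Tgfbr1 and Inhba), with a median of 0.18. The ligand gene Tgfb1 was at 21, 19.1 and 15.7 CPM in experiment 1 and 53, 73.1 and 28.3 CPM in experiment 2 and its receptor gene Tgfbr1 at 32.4, 31.2 and 38.2 CPM in experiment 1 and 6.12, 3.3 and 11.4 CPM in experiment 2. Ligand and receptor went opposite ways under both settings: Tgfb1 had 1.47 ± 0.32 and then 0.97 ± 0.24, and Tgfbr1 -2.29 ± 0.41 and then -0.89 ± 0.20. Of 26 interstitial matrix genes, 10 were called higher and 5 lower (Col8a1, Col12a1, Postn, Thbs1 and Lox), and 6 higher and 3 lower (Col8a1, Col12a1 and Thbs1) with the offset (medians 0.30 and -0.02). Col1a1, the main chain of fibrillar collagen I, did not pass with all samples (0.17 ± 0.34, and -0.59 ± 0.37 with the offset; edgeR adjusted p = 0.682 and 0.215), and was called lower only with the offset and without replicate 3 of experiment 2 (-0.95; edgeR adjusted p = 0.0415). Of 19 inflammatory and NF-kB genes, 6 were called higher and 2, Nfkbiz and Ptgs2, lower, and 6 higher and 1, Nfkbiz, lower with the offset, with medians of -0.0011 and 0.43. Leaving out replicate 3 of experiment 2 gave 6 higher and 6 lower with a median of -0.44, and with the offset a median of 0.19. The same step gave 3 higher and 5 lower TGF-beta and BMP genes, and 9 higher and 6 lower interstitial matrix genes, with the offset.

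Splicing regulators were mostly called lower when no correction was made. Of 38 tested, 26 were called lower and 5 higher (Srsf9, Hnrnpc, Hnrnpl, Ptbp1 and U2af2), with a median of -1.18, and with the GC offset 17 were lower and 8 higher (median -0.34). Clk1, a kinase that phosphorylates SR splicing factors and whose own transcript is held in the nucleus with introns, was at 101, 73.4 and 111 CPM in experiment 1 and 13.5, 8.39 and 25.3 CPM in experiment 2. Its log2 difference was -2.59 ± 0.39 (edgeR adjusted p = 0.00533) and -0.93 ± 0.15 with the offset (edgeR adjusted p = 0.00562), and the related kinase gene Clk4 had -2.57 ± 0.39 and then -0.87 ± 0.15. U2af2, a splicing factor that binds the polypyrimidine tract of introns, was higher under both settings (1.05 ± 0.24, then 0.43 ± 0.14). Ptbp1, a repressor of exon inclusion, was called higher without the offset (0.90) and not with it (0.30; edgeR adjusted p = 0.098), though it was called with the offset when replicate 3 of experiment 2 was left out (0.36; edgeR adjusted p = 0.0288).

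RNAs that stay in the nucleus were mostly called lower in experiment 2 with and without the GC offset. Of 6 nuclear-retained and imprinted long noncoding RNAs tested, 5 were called lower and 1, H19, higher (median -2.40), and 4 lower (Malat1, Neat1, Xist and Kcnq1ot1) and none higher with the offset (median -1.11). Malat1, the scaffold RNA of nuclear speckles, was at 674, 415 and 743 CPM in experiment 1 and 96.7, 50.3 and 184 CPM in experiment 2, a log2 difference of -2.47 ± 0.46 (edgeR adjusted p = 0.00536) and of -1.30 ± 0.28 with the offset (edgeR adjusted p = 0.0092). Neat1, the RNA that builds paraspeckles, was at 179, 117 and 215 CPM in experiment 1 and 31.4, 17.6 and 51.9 CPM in experiment 2 and had -2.34 ± 0.40, then -1.97 ± 0.32. Xist, which coats the inactive X chromosome, was at 942, 706 and 1218 CPM in experiment 1 and 108, 66.7 and 242 CPM in experiment 2 and had -2.78 ± 0.47, then -1.46 ± 0.25. For all 3 RNAs every culture of experiment 2 lay below every culture of experiment 1, with replicate 3 the highest of its group. H19, an imprinted RNA of the cytoplasm, was at 2.5, 0.879 and 2.26 CPM in experiment 1 and 7.51, 6.08 and 4.96 CPM in experiment 2 and was not called with the offset (edgeR adjusted p = 0.0549). These transcripts are long, with a median of 12464.5 bases, and with GC and length offsets together, these 3, Malat1, Neat1 and Xist, were called lower and the median was -0.40. Kcnq1ot1, with a transcript of 93092 bases, then changed direction and was not called (0.69 ± 0.31; edgeR adjusted p = 0.103).

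Intronic, antisense and poorly annotated loci were called lower more often than higher. Of 852 loci in the annotation class TEC, for models that still await experimental testing, 605 were called lower and 15 higher (median -1.99), and 343 lower and 27 higher with the offset (median -1.02). Of 100 sense intronic RNAs, 77 were lower and 2, Peg13 and Gm43566, higher, and 44 lower and 2, Peg13 and Gm45311, higher with the offset (medians -2.23 and -1.18). Of 1026 antisense RNAs, 464 were lower and 71 higher, and 398 lower and 54 higher with the offset (medians -0.87 and -0.79). Long noncoding RNAs from bidirectional promoters did not lean to one side. Of 131 tested, 27 were lower and 25 higher, and 21 lower and 22 higher with the offset (medians -0.02 and 0.02). When replicate 3 of experiment 2 was left out, 579 antisense RNAs were lower and 109 higher (520 and 90 with the offset), and 700 TEC loci were lower and 26 higher (407 and 52). The strand setting of the counting is not given in the sources used here, so reads of an antisense or intronic RNA and those of the gene it overlaps may not be told apart. In the transcript table, models annotated as retained introns took 4.78%, 4.42% and 4.94% of TPM in experiment 1 and 2.97%, 2.84% and 3.36% in experiment 2, a ratio of the means of 0.65. The groups did not overlap (exact permutation test, two-sided, p = 0.1, the smallest the design allows). Models annotated for nonsense-mediated decay took 2.12% ± 0.04 and 2.21% ± 0.09 (SD, n = 3 each), with overlapping ranges (exact permutation test, two-sided, p = 0.2). No GC offset was applied to these shares of TPM, so how far they follow GC content was not tested.

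**Figure D4:**
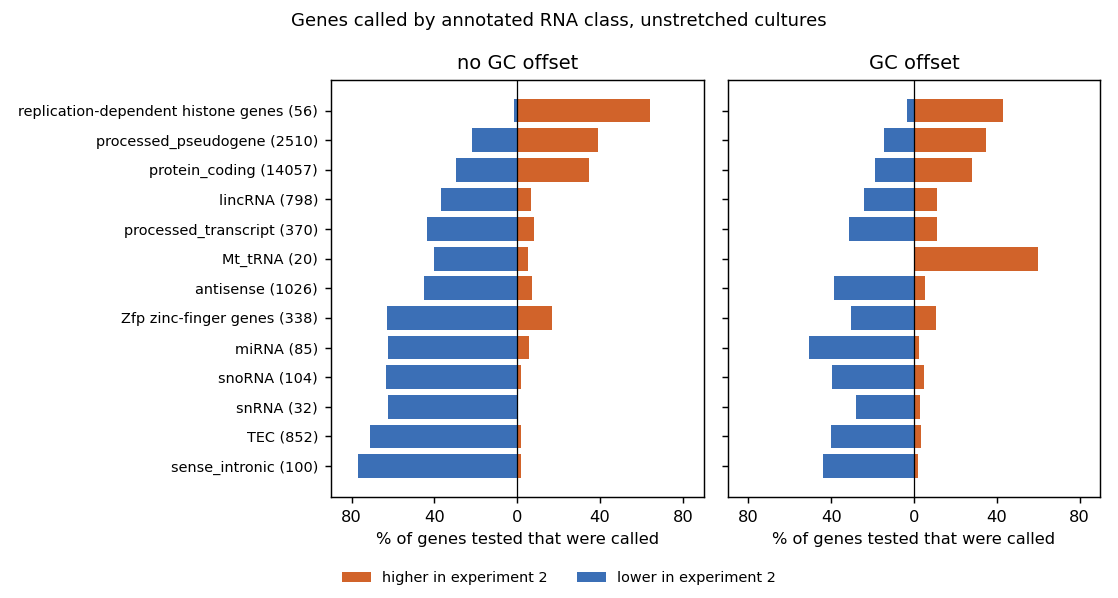
Share of the genes tested in each annotated RNA class (number tested in brackets) that were called higher (orange, to the right) or lower (blue, to the left) in experiment 2, without (left panel) and with (right panel) the GC offset. Except for mitochondrial tRNA genes, the noncoding, intronic and small RNA classes shown are more often lower than higher in both panels, histone genes and processed pseudogenes are more often higher, and mitochondrial tRNA genes change sides.

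Small RNA genes and other structural classes were described by their counts. Of 104 snoRNA genes, which guide the modification of ribosomal RNA, 66 were called lower and 2 higher, and 41 lower and 5 higher with the GC offset (medians -1.68 and -0.98); the higher ones were Snord104 and Snord55, and with the offset Gm24166, Snord104, Snora69, Snord42b and AF357399. Of 85 miRNA genes, 53 were lower and 5 higher, and 43 lower and 2 higher with the offset (medians -1.40 and -1.48). The higher miRNA genes were Mir692-1, Mir3091, Mir7688, Mir8099-2 and Mir6236, and with the offset Mir7688 and Mir703. Leaving out replicate 3 of experiment 2 gave 88 snoRNA genes lower and 2 higher (64 and 7 with the offset), and 66 miRNA genes lower and 6 higher (59 and 5). Poly(A) libraries are not made to capture the mature small RNAs, so these values do not measure them. Of 338 Zfp genes, which encode zinc-finger proteins, 213 were lower and 56 higher, and 102 lower and 36 higher with the offset (medians -1.16 and -0.27). Zfp942 (-2.60, then -0.76) was among the lowest and the GC-rich Zfp771 (1.93, then 0.86) the highest by rule.

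Replication-dependent histone genes, whose mRNAs normally end without a poly(A) tail, were mostly called higher when no correction was made. Of 56 tested, 36 were called higher and 1, Hist2h4, lower (median 1.19), and 24 higher and 2, Hist2h4 and Hist1h1b, lower with the offset (median 0.62). Hist1h1c, a linker histone gene, was at 50, 39.1 and 44 CPM in experiment 1 and 163, 174 and 77.6 CPM in experiment 2, a log2 difference of 1.64 ± 0.30 (edgeR adjusted p = 0.00535) and of 0.91 ± 0.19 with the offset. Histone genes lie in families of similar sequence, so reads may be split between them. Of 2510 processed pseudogenes, 979 were called higher and 554 lower, and 868 higher and 360 lower with the offset (medians 0.54 and 0.53). Bc1, a rodent noncoding RNA made by RNA polymerase III from an old retroposed copy, was at 10.3, 13.4 and 15.8 CPM in experiment 1 and 222, 124 and 38.9 CPM in experiment 2, and had 3.29 ± 0.56 and 5.07 ± 0.72 with the offset (edgeR adjusted p = 0.00533 and 0.00559). It was higher in every culture of experiment 2, with replicate 1 the highest, and its sequence resembles identifier repeats elsewhere in the genome.

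The groups were also compared by the share of all gene counts that a class took, without a GC offset. Mitochondrial protein genes took 4.21%, 3.62% and 4.59% of counts in experiment 1 and 1.54%, 1.13% and 2.58% in experiment 2. Cytosolic ribosomal protein genes took 3.05%, 3.35% and 2.78% and then 6.46%, 6.70% and 4.13%. Malat1 alone took 0.0765%, 0.0466% and 0.0831% and then 0.00830%, 0.00394% and 0.0193%, a ratio of means of 0.15, or 0.089 without replicate 3 of experiment 2. None of these groups overlapped, and replicate 3 of experiment 2 was the sample of its group nearest to experiment 1 in each. TEC loci had a ratio of means of 0.42, sense intronic RNAs 0.50, small RNA types 0.46, long noncoding types 0.62, Zfp genes 0.61 and replication-dependent histone genes 1.87, each with an exact permutation p of 0.1 (two-sided). All pseudogene types together took 4.59% ± 0.01 and 4.85% ± 0.27 (SD, n = 3 each), with overlapping ranges (exact permutation test, two-sided, p = 0.4).

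**Figure D5:**
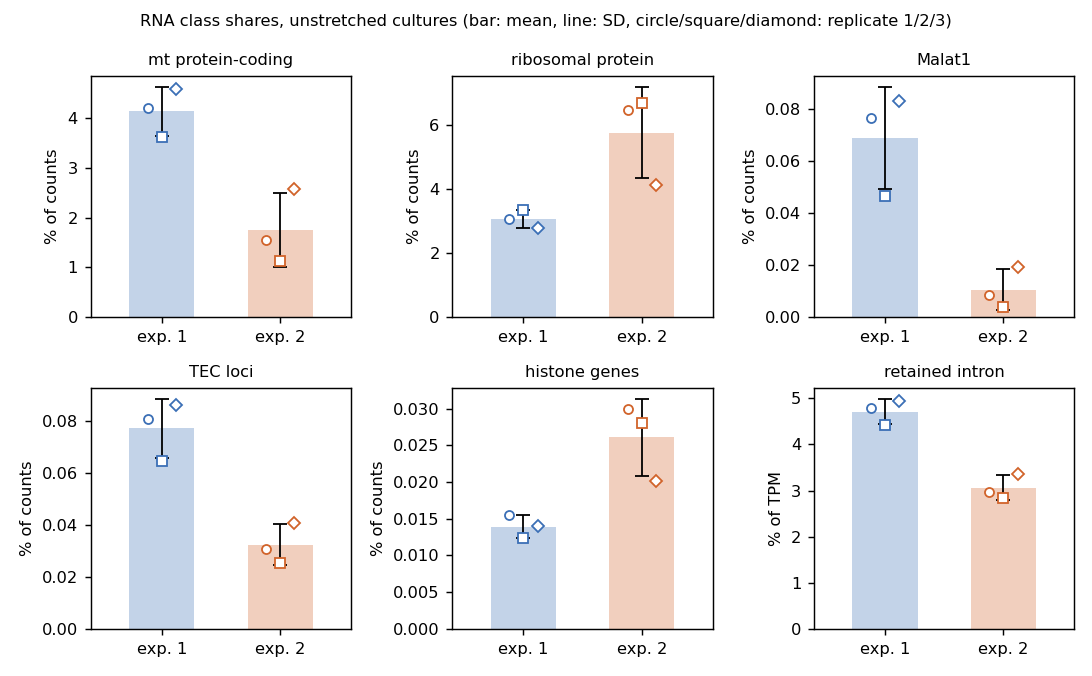
Percentage of gene counts (first 5 panels) or of transcript TPM (retained introns) taken by each class in the unstretched cultures of experiment 1 (blue) and experiment 2 (orange), with bars at the mean, lines for the SD and 1 symbol per replicate. The groups do not overlap in any panel, and the diamond of experiment 2, replicate 3, is the point nearest to experiment 1. No GC offset was applied to the shares.

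The difference between experiments was also measured in the cultures that the comparison above did not use. Between 3 high-stretch cultures of experiment 2 and 6 low-stretch cultures of experiment 1, in which amplitude and experiment cannot be told apart, edgeR called 15225 of 21245 genes (71.7%), 7098 higher (33.4%) and 8127 lower (38.3%), and with the GC offset 30.8% higher and 27.7% lower. Of the 12817 genes called between unstretched cultures among the 20329 tested in both, 12093 were called in the same direction between stretched cultures, which was 94.4% of the unstretched list and 81.7% of the stretched one, and 3 (Ptgds, Sdcbp2 and S100a7a) in the opposite direction. With the GC offset in both, 8456 genes were shared in direction (90.6% and 70.3%) and 2, Inmt and S100a7a, were opposite. The GC groups ran from -2.19 in the lowest to 0.86 in the highest.

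By program, the stretched cultures gave 72 of 79 cytosolic ribosomal protein genes higher and none lower, 66 of 73 nuclear respiratory chain genes higher and 2, Uqcrb and Ndufs1, lower, and none of 13 mitochondrially encoded genes higher and 11 lower. With the offset, 9 mitochondrially encoded genes were called higher and 1, mt-Nd4l, lower. Malat1 had -2.91 and Mki67 -2.42 on the log2 scale between stretched cultures, against -2.47 and -2.06 between unstretched ones. Acta2 had 1.63 against 1.58, and Cd2ap -2.78 against -2.32. For Clu, a secreted chaperone, and C3, the central complement component, the values were further apart. Clu had 1.91 between unstretched and 0.22 between stretched cultures, and C3 1.72 and -0.73. Neither stretched value was called (edgeR adjusted p = 0.565 for Clu and 0.16 for C3). With the offset the stretched value of C3 was called lower (-1.24; edgeR adjusted p = 0.036) and that of Clu was not called (-0.44; edgeR adjusted p = 0.294). The unstretched value of C3 was 1.05 without replicate 3 of experiment 2, and with the offset it was not called (1.26; edgeR adjusted p = 0.0749). The difference of these differences was not tested here.

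The codes in the sample descriptions end in 06 for every culture of experiment 2 and in 05 for the unstretched cultures of experiment 1. A single low-stretch culture of experiment 1, replicate 6, also has a code ending in 06. Its mitochondrial protein genes took 4.42% of counts, its cytosolic ribosomal protein genes 3.48%, Malat1 0.0722% and retained introns 4.40% of TPM. All 4 values lay within the range of the other low-stretch cultures of experiment 1 and outside the range of both groups of experiment 2. The labels do not say what the codes stand for. With a single such culture, a difference by code was not tested.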

How the data were processed

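RNA of cultured SVI podocytes was extracted with Tri-Reagent, treated with DNase, turned into stranded poly(A) libraries (TruSeq) and sequenced as read pairs on a NovaSeq instrument, per the labels' protocols. The authors deposited whole-number read counts per gene for 55416 genes and TPM values per transcript for 140789 transcripts. The submitters' processing notes name STAR 2.7.5c, Subread 2.0.0 with featureCounts, Salmon 1.9.0, DESeq2 1.38.3 and the build mm39; which annotation and strand setting were used is not given in the sources used here. Names, transcript types, GC content and sequences were taken from GENCODE M21, an annotation of another build, by gene and transcript identifier (52135 genes and 137189 transcripts matched), so no coordinates are printed.

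Gene counts of the 3 unstretched cultures per experiment entered edgeR (version 4.0.16, under R 4.3.3; TMM, filterByExpr, quasi-likelihood test, Benjamini-Hochberg adjusted p under 0.05). The GC offset is a lowess trend (span 0.3) of each gene's log2 deviation on transcript GC content, fitted in each sample and entered as an offset for 20503 genes. Shares of counts and of TPM were compared with exact permutation tests. Values after ± are an SE or SD, and other single values carry neither. The SE of a log2 difference is its absolute value divided by the square root of its quasi-likelihood F statistic. Totals of 172211836 to 294648217 counts per sample set the counting error. The code was tested on simulated data. Alternatives were other normalizations and filters, DESeq2 1.42.0, length offsets, the replicate number as a block, all 15 samples and each replicate left out. The genes named were the 10 largest rises and falls among protein-coding genes called in the same direction with and without the offset, with no overlap between groups and a mean of at least 5 CPM, and up to 2 called rises and falls per list or noncoding type at a mean of at least 1 CPM. A fixed set was named whatever its values, apart from members that are not reported here: Nphs1, Podxl, Synpo, Wt1, Mki67, Cdkn1a, Acta2, Ccn2, Col1a1, Malat1, Neat1 and mt-Co1. Other genes were named to list the members of a small count or were singled out after their values were seen. The comparison and the 31 gene lists were chosen with earlier results of these data known.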

Additional observations from a re-analysis of the deposited data

How the results depend on the processing

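The number of genes called stayed within 1.5 times 12941 under every alternative: 12692 without a filter, 10139 at a mean of at least 100 counts, 12979 with DESeq2's size factors in edgeR, 13574 with DESeq2, 14820 with all 15 samples in the fit, 13219 with a length offset and 8825 with GC and length offsets, and 9312 to 15698 with each replicate left out (4116 to 7143 higher and 5083 to 8555 lower). The genes called lower numbered 4305 with the GC offset and 4086 with GC and length offsets. Whether replicate numbers pair the samples is not settled by these values. The deviations of same-numbered samples correlated at -0.07, 0.38 and 0.27, and those of samples with different numbers at -0.35 to 0.08. With the replicate block 13154 genes were called, or 9851 with the block and the GC offset.

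The difference between the lowest and the highest GC group was -0.25 with the GC offset, -0.16 with GC and length offsets, -0.26 with the replicate block and GC offset and -0.34 with the GC offset without replicate 3 of experiment 2, by construction of the offset. It ran from -3.51 to -2.48 with each replicate left out. The share of nuclear protein-coding genes differed by 1.34 percentage points without the 10 most abundant genes and by 0.226 without mitochondrial genes (exact permutation p = 0.2), and by 2.20 to 2.79 with each replicate left out. That of mitochondrial protein genes differed by -1.66 without the 10 most abundant genes and by -2.80 to -2.08 with each replicate left out. Retained introns differed by -1.30 among transcripts of at least 1 TPM, by -2.09 without the 10 most abundant transcripts and by -1.80 to -1.54 with each replicate left out. Between stretched cultures 13868 to 15242 genes were called with each replicate left out.

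Among called genes given with their values, changes of direction included those below. Log2 values come in this order: GC offset, GC and length offsets, replicate block with GC offset, GC offset without replicate 3 of experiment 2. They were 0.53, 0.44, 0.57 and 0.49 for Ccne2. They were 0.98, 0.75, 0.98 and 1.08 for Uqcrb, and 0.20, 0.10, 0.22 and 0.20 for Psmc6. Chordc1 had 0.33, 0.58, 0.32 and 0.38, Bnip3l 0.76, 0.68, 0.74 and 0.86, and Lamp2 0.23, 0.19, 0.24 and 0.19. Pax2 had -0.30, -0.26, -0.31 and -0.40, and mt-Co1 0.75, 0.61, 0.74 and 0.86. For mt-Cytb the direction changed in 3 of these, to 0.11, 0.11 and 0.053, and for Lrp2 only with the length offset, to 0.27. Foxd1 went to -0.22 with the GC offset and without replicate 3 of experiment 2. Of called genes listed by name only, Axl, Hnrnpl, Ccng1, Id4, Clic5, Fas, Psmd14, Postn, Scarb2, Psma1, Tpm4, Nck1, Arhgef17, Eda2r, Pdgfrb, Mrpl50, Mrpl42 and Mir703 changed direction with the GC offset, and Psmd14, Psma1, Mrpl42 and Mir703 were then called higher. The cause was not tested.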

Other observations

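Immediate early genes, many of them for transcription factors, are switched on within minutes of a stimulus, and their levels were uneven within experiment 2. Ier2 was at 12.1, 19 and 10.9 CPM in experiment 1 and 39.5, 47.4 and 136 CPM in experiment 2, and Junb at 40.1, 83 and 34.6 CPM in experiment 1 and 125, 157 and 239.7 CPM in experiment 2. For both, replicate 3 of experiment 2 was the highest of the 6 samples. Without that replicate the log2 difference of Ier2 was 1.58 in place of 2.41, and 0.54 in place of 1.74 with the GC offset. Of 20 such genes, 7 were called higher and 1, Nr4a2, lower (edgeR, adjusted p under 0.05), and with the GC offset Ier2 was called higher and Nr4a2 lower. Without replicate 3 of experiment 2 6 were higher and 2 lower (Nr4a2 and Nr4a3), and with the offset 1 higher (Ier2) and 4 lower (Fos, Egr1, Klf4 and Nr4a2). Of 16 circadian clock genes, 7 were called higher and 4 lower, and 2 higher and 5 lower with the offset (medians 0.18 and -0.0018). The output genes Dbp (1.79 ± 0.34, then 0.80 ± 0.24 with the offset) and Nfil3 (1.25 ± 0.23, then 0.59 ± 0.13) were called higher. Clock, which encodes a core activator of the cycle, was called lower (-2.25 ± 0.40, then -0.85 ± 0.18). Between stretched cultures with the offset, Nfil3 had 0.60, and Dbp was not called (-0.10; edgeR adjusted p = 0.683).

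Complement genes were called in both directions, as were all genes tested (29.7% higher and 32.7% lower, and 24.9% and 21.0% with the GC offset). Whether this small list differs from those shares was not tested. Of 11 tested, C3, C1ra, Clu and Masp1 were called higher and Cfp and Cd46 lower, and Cd59a, Clu and Masp1 higher and Cfp and Cd46 lower with the offset. Without replicate 3 of experiment 2, 7 were higher and 3 lower, and 5 and 2 with the offset. Clu was at 55.6, 37.8 and 62.9 CPM in experiment 1 and 183, 257 and 148 CPM in experiment 2, and Cd46, a complement regulator, at 2.71, 1.87 and 3.33 CPM in experiment 1 and 0.308, 0.104 and 0.524 CPM in experiment 2. Cfp, which encodes properdin, differed by -1.26 ± 0.28 and by -1.90 ± 0.38 with the offset. Of 13 snoRNA host genes, 2, Snhg8 and Snhg18, were called higher and 6 lower, and 6 higher and 5 lower (Snhg5, Snhg15, Snhg17, Snhg20 and Dancr) with the offset, with Snhg18 higher under both settings (1.34, then 1.69), Snhg5 lower under both (-1.73, then -0.98) and Gas5 not called with it (-1.32, then -0.05).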
